A study of Mus musculus with 7 samples.

Results

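The genes described here build the scaffold of the muscle sarcomere, and their 18 probe sets, of 45101 on the array, were followed through 7 myoblast samples from mice with and without Hmga2. The set holds 10 genes of 18193 genes represented there: the titin gene Ttn and its cap Tcap, the thin filament genes Neb and Fhod3, the Z-disc genes Actn2, Actn3, Myoz1 and Myoz2, the M-band gene Myom1 and the thick filament gene Mybpc1. They were chosen by name with their lower intensities in Hmga2 KO already known, as every probe set that the platform table pairs with these genes, so the difference between Hmga2 KO and wild type is given below as a description, and the few counts of calls from the fit of all genes support nothing. Affymetrix arrays were hybridised with biotin-labelled cRNA from myoblasts, the precursors that fuse into skeletal muscle fibres, of C57BL/6 mice. The groups were 4 untreated samples of the genotype HMGA2 -/- (Hmga2 KO; replicates 1 and 3 male, replicates 2 and 4 female) and 3 untreated wild type samples, all female. No source used here gives the age of the mice, the time in culture or the deleted part of the gene. For Hmga2 KO replicate 2 the labels carry 2 different animal numbers, though both call it a female Hmga2 KO sample, and many overlaps between the groups below rest on this sample.

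In the sarcomere, actin filaments are anchored in the Z-disc by alpha-actinin and myosin filaments are held in register at the M-band, while titin spans from one to the other as an elastic ruler. These proteins are made when myoblasts leave the cell cycle and differentiate, under myogenic bHLH factors and MEF2 factors. Myoblasts that are still dividing make little of them.

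Promoter sequences are described for 5 of the 10 genes, Ttn, Actn2, Myoz2, Myom1 and Mybpc1. They come from RefSeq windows of build GRCm38.p6 that run from 250 bases before the gene's start to 50 bases after it. None is given for Tcap, Neb, Actn3, Fhod3 or Myoz1. For the scaffold genes, windows on 1 chromosome were left out, though these stay among all windows counted below. The sequences are shown as background, since MEF2 and bHLH factors are known regulators of sarcomere genes. Whether such sites play a part in the values below was not tested. The windows of Ttn (chr2:76982498-76982797, minus strand), Myoz2 (chr3:123034938-123035237, minus strand) and Myom1 (chr17:71019307-71019606, plus strand) follow, 5′ to 3′ on the strand of the gene. Capitals mark matches, on either strand, to the E-box CANNTG, to the MCAT core CATTCC, to the MEF2 consensus and to the CArG box of serum response factor. The printed windows are those with a match to the MEF2 consensus or the CArG box, and the windows of Actn2 and Mybpc1 hold neither.
Ttn: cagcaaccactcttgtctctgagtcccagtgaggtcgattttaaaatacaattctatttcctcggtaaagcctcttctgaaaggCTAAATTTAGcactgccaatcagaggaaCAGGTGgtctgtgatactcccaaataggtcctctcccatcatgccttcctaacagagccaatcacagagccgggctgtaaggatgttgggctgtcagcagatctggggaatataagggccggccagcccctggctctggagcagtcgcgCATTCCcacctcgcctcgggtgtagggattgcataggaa
Myoz2: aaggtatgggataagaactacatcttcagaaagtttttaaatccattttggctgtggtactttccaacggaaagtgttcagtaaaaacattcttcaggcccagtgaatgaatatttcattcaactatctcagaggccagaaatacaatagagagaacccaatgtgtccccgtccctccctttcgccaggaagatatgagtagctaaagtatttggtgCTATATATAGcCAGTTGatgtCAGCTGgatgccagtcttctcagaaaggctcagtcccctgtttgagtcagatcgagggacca
Myom1: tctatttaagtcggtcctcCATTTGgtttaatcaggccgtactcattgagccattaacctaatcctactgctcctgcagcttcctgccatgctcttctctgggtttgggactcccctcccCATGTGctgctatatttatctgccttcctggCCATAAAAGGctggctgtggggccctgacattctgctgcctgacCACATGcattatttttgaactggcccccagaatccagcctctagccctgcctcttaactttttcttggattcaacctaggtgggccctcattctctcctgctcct
The windows of Ttn and Myoz2 each held 1 match to the MEF2 consensus, which begins 166 bases before the start in Ttn and 33 bases before it in Myoz2. Such a match was found in 0.557% of all 32851 windows of this length. Myom1 had the 1 CArG box of the 5 windows, beginning 99 bases before its start, against 1.63% of all windows. An E-box was present in all 5 windows, 1 in Ttn, 2 in Myoz2 and 3 each in Actn2, Myom1 and Mybpc1, and 72.3% of all windows hold at least 1. The form CAGCTG, which lies within the E-box pattern, occurred in Myoz2 and Mybpc1 (16.3% of all windows), and the MCAT core in Ttn alone of the 5 (14.7%). These matches describe the letters of the windows, and no binding was measured.

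The 7 arrays shared a median intensity of 150, and the values below are these intensities, which set no gene's level against another's. The targeted gene matched the labels: on its brightest probe set Hmga2 had 96.6, 85.7, 96.7 and 104.5 in the Hmga2 KO samples, replicates 1 to 4, against 11999, 9998 and 12800 in the wild type samples. The myoblast regulators Pax7 (5519 to 6765 in Hmga2 KO and 5188 to 5739 in wild type) and Myod1 (14293 to 15299 in Hmga2 KO and 14778 to 15766 in wild type) were bright in every sample. Of the 9 listed myoblast markers, 7 had a lower and 2 a higher mean log2 level in Hmga2 KO, where 67.6% of all genes were lower. Myf5 differed by 0.64 on the log2 scale, Itga7 by -0.60 and Vcam1 by -0.23. Myf5 had 1816.4, 4884.7, 2477.7 and 1687.5 in Hmga2 KO replicates 1 to 4, against 1978.9, 1411.9 and 1408.2 in wild type. The groups overlapped for Myf5 and Itga7. For Vcam1 every Hmga2 KO sample lay below every wild type sample, as for 9.29% of all genes. These 3 were named after their values were seen. Probe sets for Y-linked genes, 9 in all, read 33.9 to 58.2 in the 5 female samples, and this range is called background here. The labels call the replicates biological, and with 4 and 3 of them the precision is low. A lower value in such bulk samples can come from fewer differentiated cells or from less RNA per cell, which cannot be told apart.

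Titin, the giant protein that links Z-disc and M-band, was lower on average in Hmga2 KO. Ttn had 1168, 1854, 1901 and 1820 in Hmga2 KO replicates 1 to 4, against 1991, 3066 and 2767 in the wild type samples. Every Hmga2 KO sample lay below every wild type sample, but replicate 3 of Hmga2 KO and replicate 1 of wild type were close together. The difference was -0.63 on the log2(intensity + 1) scale (SE 0.20, n = 4 and 3), and -0.48 when only female samples were compared. Without Hmga2 KO replicate 1 and wild type replicate 2 it was -0.34. The array holds another 5 probe sets of Ttn. Of its 6 probe sets, 5 reached more than 100 in at least 1 sample, and on these 5 the difference ran from -0.84 to -0.54. On all 5, Hmga2 KO replicate 1 was the lowest sample and wild type replicate 2 the highest. The groups overlapped on the 4 of them not described above. The remaining one, at 55.7 to 79.2 in Hmga2 KO and 77.5 to 85.6 in wild type, was close to background.

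Tcap encodes telethonin, the small protein that caps the end of titin in the Z-disc. It had 216, 433, 283 and 513 in the Hmga2 KO samples, against 658, 660 and 718 in wild type. The groups did not overlap, and the wild type samples lay within a narrow band while the Hmga2 KO samples were spread out. Its mean intensity was 361 ± 136 in Hmga2 KO (SD, n = 4) and 679 ± 34.1 in wild type (SD, n = 3), a log2 difference of -0.99 (SE 0.26). Both male Hmga2 KO samples were lower than both female ones, and among females the difference was -0.52.

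Neb and Fhod3, which act on the thin filament, differed from each other. Neb encodes nebulin, which runs along the thin filament, and had 1469, 2368, 2118 and 2120 in Hmga2 KO, against 1717, 2584 and 1971 in wild type. The groups overlapped throughout and the difference of -0.05 (SE 0.19) was close to the median of all genes, -0.07. Its sign depended on the samples and the scaling, with 0.12 in females alone, 0.09 without Hmga2 KO replicate 1, 0.11 without wild type replicate 2 and 0.02 after quantile normalization. Fhod3, a formin that assembles sarcomeric actin, had 278, 315, 308 and 302 in Hmga2 KO, against 462, 573 and 591 in wild type. All 4 Hmga2 KO samples lay in a narrow range well below the wild type samples. The difference was -0.84 (SE 0.11), or 1.79-fold lower in Hmga2 KO. It was -0.80 in females alone, -0.80 without Hmga2 KO replicate 1 and -0.80 without wild type replicate 2. Over 15 alternatives the Fhod3 difference ran from -0.95 to -0.76. Some of these repeat the main value by design, since Fhod3 has only 1 probe set to choose.

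**Figure D1:**
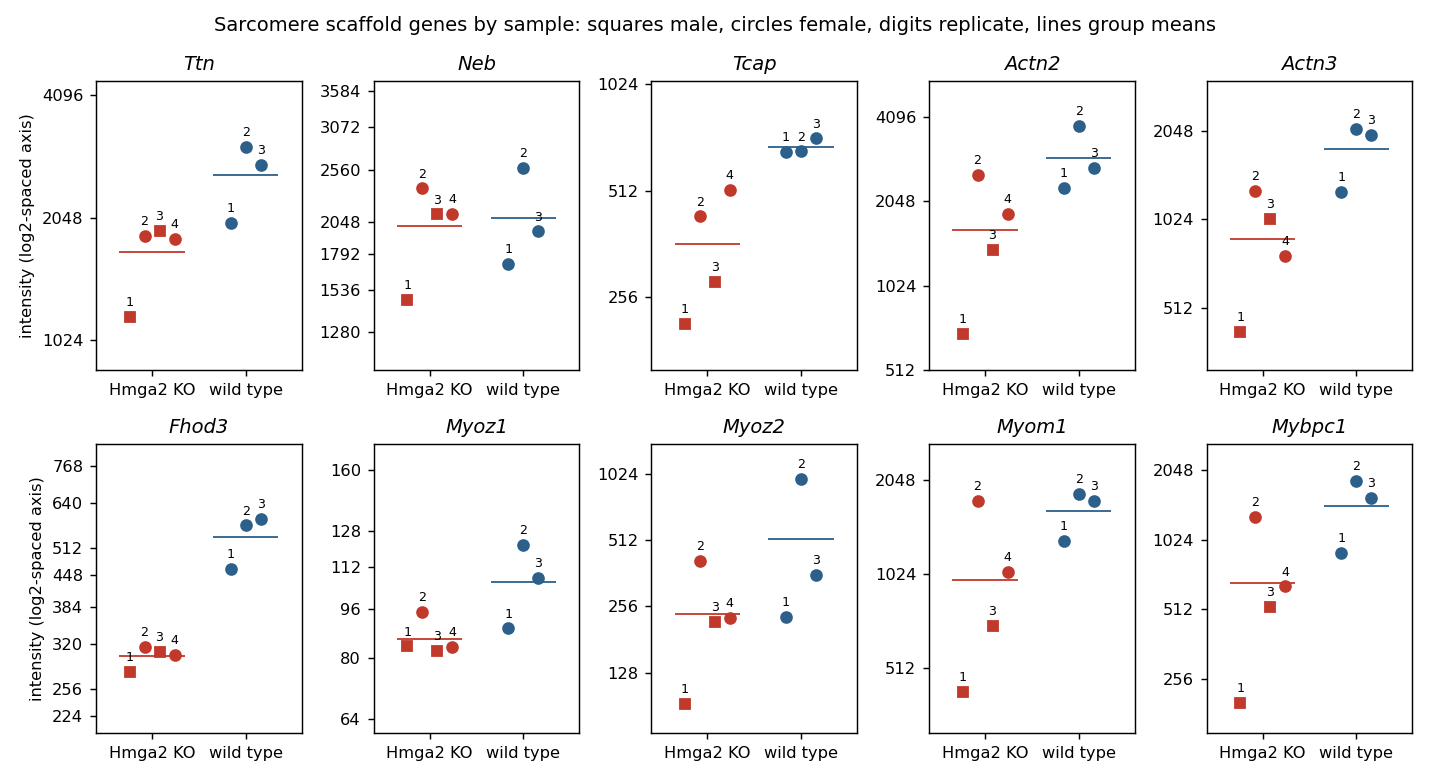
Intensity of the 10 scaffold genes in each sample (brightest probe set, log2-spaced axis, own scale per gene), with Hmga2 KO left of wild type; squares are male, circles female, digits the replicate and lines the group means. Ttn, Tcap and Fhod3 are the genes whose groups do not overlap, and on the log2 scale Fhod3 has the narrowest Hmga2 KO range (278 to 315).

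The alpha-actinins cross-link actin filaments in the Z-disc. Actn2, the form of heart and of all skeletal fibres, had 690, 2544, 1372 and 1852 in Hmga2 KO, against 2285, 3794 and 2697 in wild type. Actn3, the form of fast fibres, had 425, 1279, 1024 and 769 in Hmga2 KO, against 1267, 2081 and 1986 in wild type. For both genes Hmga2 KO replicate 2 lay just above the lowest wild type sample and the other 3 below all of them. The differences were -0.98 (SE 0.39) for Actn2 and -1.10 (SE 0.34) for Actn3. In females alone they were -0.40 for Actn2 and -0.81 for Actn3, and without Hmga2 KO replicate 1 they were -0.62 and -0.79 in the same order.

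Myozenins tether calcineurin to alpha-actinin in the Z-disc. Myoz2, the form of heart and slow muscle, had 91.9, 412, 217 and 227 in Hmga2 KO, against 228, 965 and 356 in wild type. Hmga2 KO replicate 2 exceeded all but one wild type sample, and wild type replicate 2 stood far above the rest. The difference of -1.04 (SE 0.55) was -0.48 in females alone, -0.65 without Hmga2 KO replicate 1, -0.45 without wild type replicate 2 and -0.06 without both of these samples, so its size rests on them. Myoz1, the form of fast muscle, was dim, with 83.6, 95, 82.1 and 83.5 in Hmga2 KO against 89.3, 121.5 and 107.6 in wild type on its brighter probe set. Its difference was -0.29 (SE 0.12) there and -0.13 on the other probe set, which at 57.1 to 67.2 in Hmga2 KO and 62.9 to 78.2 in wild type lay at the edge of background. Values this close to background can understate a fold. Without wild type replicate 2 the Myoz1 difference was -0.19.

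At the M-band, Myom1 encodes myomesin, which cross-links myosin filaments. It had 427, 1755, 698 and 1040 in Hmga2 KO, against 1305, 1848 and 1753 in wild type. Hmga2 KO replicate 2 was within the wild type range and the other 3 were below it. The difference of -0.91 (SE 0.40) was -0.26 in females alone and -0.58 without Hmga2 KO replicate 1. Mybpc1, the slow form of myosin-binding protein C, which lies on the thick filament between M-band and Z-disc, had 202, 1285, 526 and 644 in Hmga2 KO, against 896, 1836 and 1556 in wild type. Again Hmga2 KO replicate 2 was the one sample of its group inside the wild type range. The difference was -1.33 (SE 0.53), the lowest of the 10, and its other 2 probe sets gave -0.83 and -0.78. Among females it was -0.59, and without Hmga2 KO replicate 1 it was -0.85.

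Counted together, 10 of 10 genes and 18 of 18 probe sets had a lower mean in Hmga2 KO, where 67.6% of all genes and 62.1% of all probe sets did. With limma and Benjamini-Hochberg adjustment over 18193 genes, 0 of the 10 passed an adjusted p of 0.05, against 0.0275% of all genes, and 8 had an unadjusted p under 0.05, all of them lower, against 13.3% of all genes in either direction and 10.3% lower. The groups did not overlap for 3 of the 10, Ttn, Tcap and Fhod3, against 9.29% of all genes in that direction and 11.7% in either. Of the 18 probe sets 3 had separate groups, against 7.71% of all probe sets in that direction. Nothing is read from these counts, since this contrast chose the genes. The median difference of the 10 was -0.94, beside -0.07 over all genes. In females alone it was -0.48, beside -0.05 over all genes, with 9 of 10 lower where 62.8% of all genes were.

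**Figure D2:**
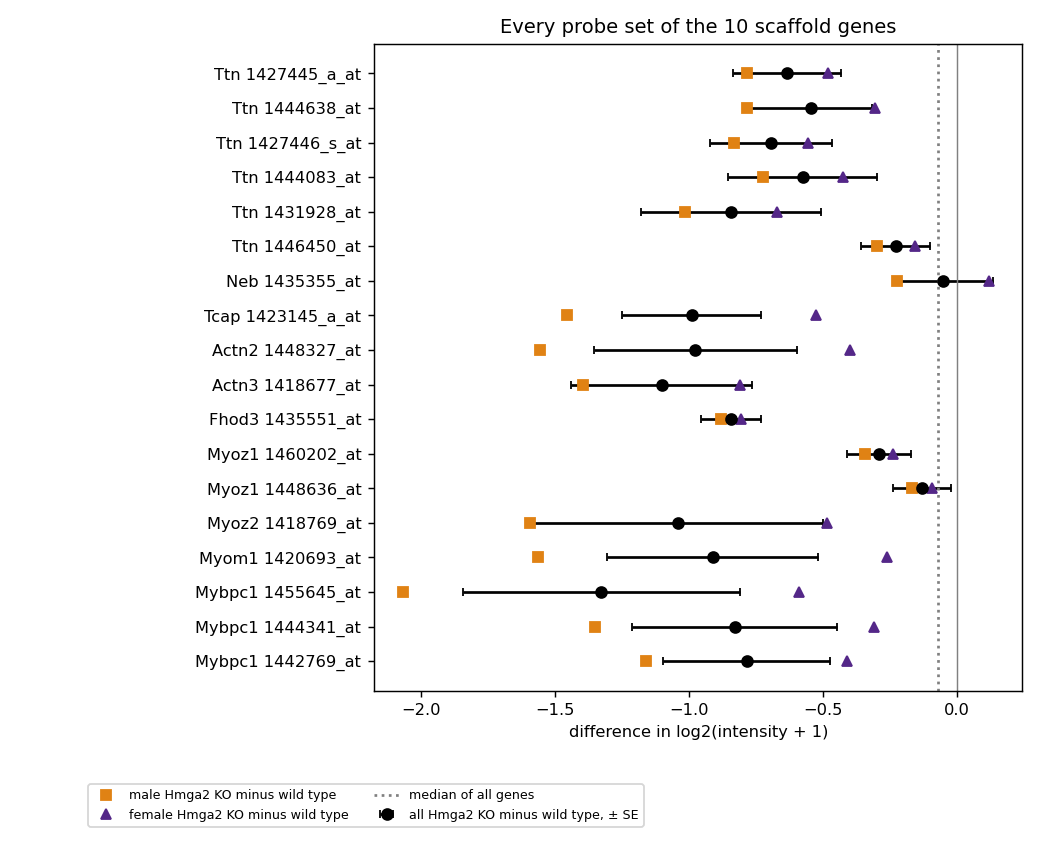
Differences from wild type in log2(intensity + 1) for all 18 probe sets: black circles with SE bars for all 4 Hmga2 KO samples, squares for the 2 males, triangles for the 2 females, and a dotted line at the median of all genes (-0.07). All 18 black circles lie below 0, the triangle of Neb lies above it (0.12), and squares and triangles are farthest apart for Mybpc1 and Myom1 and nearly together for Fhod3.

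The sample order differed between genes, with some features shared by most. Relative to each gene's mean over the 7 samples, their median log2 level was -1.24, 0.21, -0.36 and -0.15 in Hmga2 KO replicates 1 to 4, against 0.16, 0.67 and 0.54 in wild type replicates 1 to 3. By this median Hmga2 KO replicate 2 stood slightly above wild type replicate 1. Hmga2 KO replicate 1 was the lowest of the 7 samples for 9 of 10 genes, and for 21.3% of all genes. Wild type replicate 2 was the highest for 8 of 10 genes, and for 23% of all genes. Hmga2 KO replicate 2 was below all wild type samples for 3 of 10 genes, Ttn, Tcap and Fhod3. Hmga2 KO replicates 3 and 4 were below all of them for 9 of 10 genes each, Neb being the exception in both.

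The likeness of each gene to the mean standardized profile of the other 9, as a Pearson correlation over the 7 samples, was 0.98 for Mybpc1, 0.97 for Actn2, 0.96 for Actn3 and 0.95 for Ttn. It was 0.80 for Fhod3 and 0.68 for Neb. After the group means were taken out, so that only variation within groups counted, it was 0.95 for Neb and 0.75 for Fhod3. Neb followed the other scaffold genes within each group although its group means were alike. These correlations share the same 7 arrays and are given as a description.

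**Figure D3:**
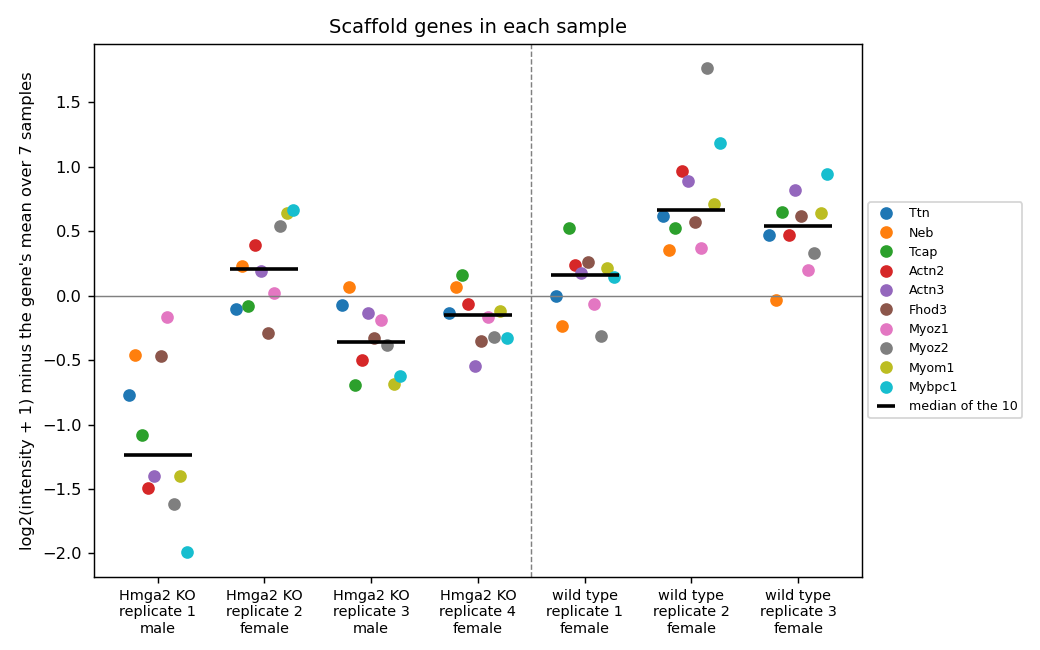
Log2(intensity + 1) of each scaffold gene minus its own mean over the 7 samples (1 colour a gene; black bars, the median of the 10), with Hmga2 KO left of the dashed line and wild type right of it. The median bar is lowest in Hmga2 KO replicate 1 (-1.24) and highest in wild type replicate 2 (0.67), while Fhod3 stays below 0 in all 4 Hmga2 KO samples.

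Other measures also differed between the samples. Wild type replicate 2, the highest sample, had a 3' to 5' ratio of the Actb control probe sets, a sign of RNA integrity, of 1.94, against 1.61 to 1.74 in the other 6, and a Gapdh ratio of 1.52, against 1.22 to 1.36. Hmga2 KO replicate 1, the lowest sample, had ratios of 1.64 and 1.33, inside those ranges. Without wild type replicate 2 the median difference of the 10 genes was -0.78, and without Hmga2 KO replicate 1 it was -0.63. Without both, a comparison chosen after the data were seen, it was -0.45. Of 13 measured markers of fibroblasts and fibro-adipogenic progenitors, 11 lay above the median of all genes, and their summed intensity was 16031 to 19394 in Hmga2 KO and 13777 to 14184 in wild type. Relative to its mean over all samples, this list had a mean log2 level of 0.62 for Hmga2 KO replicate 1, of -0.15 to 0.10 for the other Hmga2 KO samples and of -0.33 to 0.06 for wild type. Pdgfra, the receptor that marks these progenitors, had 620, 189, 195 and 200 in Hmga2 KO, against 383, 137 and 133 in wild type. Dcn, Lum and Dpt, also markers of these cells, read 38.9 to 82.5 in Hmga2 KO and 45.4 to 64.2 in wild type, and Fap stayed within background in all samples. Groups did not overlap for 2 of the 13, Mgp (difference 0.73) and Smoc2 (1.67), both higher in Hmga2 KO. Of all genes, 11.7% had separate groups in either direction, most of them (9.29% of all genes) with Hmga2 KO below. Of the 13, 11 had a higher mean in Hmga2 KO and 2 a lower one, Col1a1 (-0.71) and Thy1 (-0.11). The median difference of the list was 0.17, and 0.06 in females alone. Bright markers weigh most in the sum. Mgp read 4003.5 to 5167.5 in Hmga2 KO and 2494.5 to 2914.2 in wild type. Col3a1, the brightest of the list, differed by 0.12 with overlapping groups. Mgp, Smoc2, Col1a1, Thy1 and Col3a1 were named after their values were seen. No marker was listed at 0. The part of these cells in the lower scaffold values was not tested.

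Markers of further cell types were also summed. The 8 smooth muscle and pericyte markers summed to 21214 to 31529 in Hmga2 KO and 19390 to 28991 in wild type, with 7 above the median of all genes. That median was -0.07, while the median difference of the 8 was 0.01, with 5 higher and 3 lower in Hmga2 KO. The pericyte marker Rgs5 had 9508, 10110, 11001 and 5946 in Hmga2 KO, against 3078, 6701 and 949 in wild type (difference 1.72, adjusted p = 0.296, limma), and Mcam differed by 0.65 (adjusted p = 0.354). The contractile markers Myh11 and Cnn1 were dim, at 38.7 to 123.9 in Hmga2 KO and 34.3 to 121.8 in wild type. Acta2, the brightest of this list, differed by -0.12, Tagln by -0.03, Pdgfrb by -0.03 and Cspg4 by 0.02. All 8 of these markers were named after their values were seen. The 5 endothelial markers summed to 342 to 368 in Hmga2 KO and 367 to 424 in wild type, and the 5 leukocyte markers to 418 to 423 in Hmga2 KO and 415 to 429 in wild type. Their part in the scaffold differences was not tested. The 9 myoblast markers summed to 47468 to 57931 in Hmga2 KO and 55366 to 58380 in wild type. By limma 0 markers of these 5 lists passed over all genes, and at an unadjusted p under 0.05 there were 4 fibroblast and 2 smooth muscle markers higher, 2 myoblast markers lower, and 0 endothelial or leukocyte markers. Of all genes, 2.99% were higher and 10.3% lower at that threshold.

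The difference between male and female Hmga2 KO samples was not the contrast that chose the genes, and it was tested. It uses the same Hmga2 KO samples, however, so it is not independent of that choice where a male such as replicate 1 is low. All 10 scaffold genes were lower in the 2 males than in the 2 females, where 60.6% of all genes were, with a median difference of -0.76 beside -0.04 over all genes. For 6 of 10, every male sample lay below every female sample, against 24.1% of all genes. Over 18193 genes 0 of the 10 passed (limma, Benjamini-Hochberg), against 0.0385% of all genes, and 4 had an unadjusted p under 0.05, against 6.29% of all genes in either direction and 3.64% lower in males. The 10 genes vary together, so these are not 10 separate observations. Nor was the direction particular to them. Of 16 genes of differentiated muscle, listed below, 15 were lower in males, with a median of -0.74. Of 49 other scaffold genes, also listed below, 40 were lower, with a median of -0.38. An unadjusted p under 0.05 (limma, either direction) was reached by 11 of the 16 and 15 of the 49, and 0 passed after adjustment. Wild type males were not measured. Without Hmga2 KO replicate 1, a comparison of 1 male with 2 females added after the data were seen, 8 of 10 were lower in the male, where 62.4% of all genes were, and the median was -0.31 beside -0.06 over all genes. Ttn (0.05) and Actn3 (0.05) then had the opposite sign, Tcap differed by -0.74, Myom1 by -0.95, Mybpc1 by -0.79 and Actn2 by -0.66, and 0 of the 10 passed (limma).

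Myom1 had 427 and 698 in the male Hmga2 KO samples, against 1755 and 1040 in the female ones, a difference of -1.30 (95% interval -2.01 to -0.60, adjusted p = 0.444, limma). Tcap differed by -0.93 (95% interval -1.30 to -0.56, adjusted p = 0.255, limma), with both males below both females. Actn2, at -1.16 (adjusted p = 0.567), and Mybpc1, at -1.48 (adjusted p = 0.645), were the other genes with an unadjusted p under 0.05. The formin Fhod3 was nearly level between the sexes, at -0.08 (95% interval -0.42 to 0.27, adjusted p = 0.996, limma). Ttn differed by -0.30 and Neb by -0.34, each with an interval that includes 0.

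**Figure D4:**
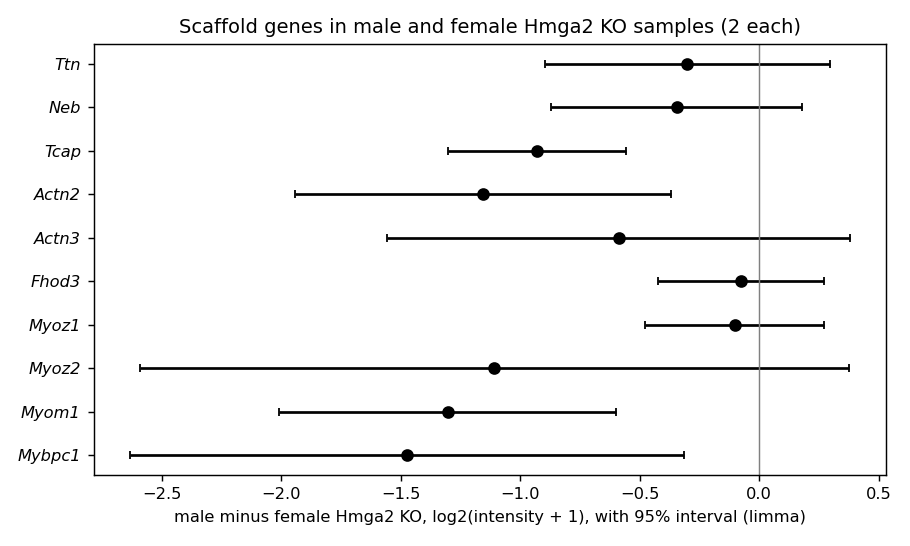
Male minus female Hmga2 KO samples (2 each) in log2(intensity + 1) for the 10 scaffold genes, with unadjusted 95% intervals from limma. All 10 points lie below 0, and the intervals of Tcap, Actn2, Myom1 and Mybpc1 leave 0 out before adjustment.

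Further genes of the sarcomere scaffold were taken from lists written without regard to how they moved in this comparison, though with earlier results of these data known. Of 53 such genes, 49 were measured, and 46 of the 49 had a lower mean in Hmga2 KO, where 67.6% of all genes did. By limma 0 of the 49 passed in either direction over all genes, against 0.0275% of all genes, while 15 lower and 2 higher had an unadjusted p under 0.05, against 10.3% lower and 2.99% higher of all genes. Their median difference was -0.39, beside -0.07 over all genes, and -0.18 in females alone. It was -0.39 for 15 Z-disc genes, -0.62 for 14 partners of titin and genes of the M-band and thick filament, -0.74 for 7 genes of thin filament length and -0.64 for 5 assembly genes. For 8 broadly expressed paralogs it was -0.06.

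Of the 49 genes, 9 had every Hmga2 KO sample below every wild type sample and 1 had every one above. Over all genes, 9.29% had separate groups with Hmga2 KO below and 11.7% in either direction. The 9 include the titin partners Ankrd2 and Ankrd23, muscle ankyrin repeat proteins that bind the elastic region of titin. Ankrd2 had 94.8, 166, 117 and 109 in Hmga2 KO, against 236, 568 and 236 in wild type (difference -1.40, SE 0.31, adjusted p = 0.224, limma). Ankrd23 had 183, 330, 217 and 181 in Hmga2 KO, against 369, 591 and 441 in wild type (difference -1.05, SE 0.23, adjusted p = 0.224, limma). In both, Hmga2 KO replicate 2 stayed below the wild type samples, and in females alone the differences were -1.22 and -0.90. Capn3, a protease that binds titin, differed by -1.43 (adjusted p = 0.281, limma), also with separate groups. By contrast Ankrd1, the third of these ankyrin repeat genes, had 13405 to 15176 in Hmga2 KO and 14369 to 15750 in wild type, a difference of -0.04; it was named after its value was seen.

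At the M-band and thick filament, Myom2, a second myomesin, had 533, 2064, 1107 and 1502 in Hmga2 KO, against 1925, 3374 and 2186 in wild type (difference -1.06, adjusted p = 0.336, limma). Mybph, related to myosin-binding protein C, differed by -1.09 (adjusted p = 0.298). In females alone the difference was -0.46 for Myom2 and -0.59 for Mybph. Both had Hmga2 KO replicate 2 within the wild type range. In the Z-disc, Csrp3, a muscle LIM protein, had 804, 2134, 1527 and 1952 in Hmga2 KO, against 2110, 4443 and 2913 in wild type (adjusted p = 0.308, limma), and Pdlim3, a partner of alpha-actinin, differed by -0.96 (adjusted p = 0.381), and in females alone they differed by -0.56 for Csrp3 and -0.47 for Pdlim3. The leiomodins, which nucleate actin and set thin filament length, differed by -1.01 for Lmod2 (adjusted p = 0.305) and -0.95 for Lmod3 (adjusted p = 0.337), with -0.55 and -0.54 in females alone in the same order. Unc45b, the chaperone that folds myosin, had 212, 1014, 474 and 618 in Hmga2 KO, against 854, 1831 and 1248 in wild type (difference -1.32, adjusted p = 0.312, limma), and differed by -0.66 in females alone.

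Of the 8 paralogs used outside the sarcomere, 6 had a lower and 2 a higher mean in Hmga2 KO, and those named here were picked after their values were seen. Actn1 and Actn4, the alpha-actinins of most cell types, differed by -0.06 each, against -0.98 for Actn2 and -1.10 for Actn3. Nebl, the nebulin relative, had 2149, 1142, 1605 and 1680 in Hmga2 KO, against 1499, 1078 and 873 in wild type (difference 0.52, adjusted p = 0.382, limma). Tmod3, a broadly expressed tropomodulin, differed by 0.42 (adjusted p = 0.32, limma). Pdlim7, a PDZ and LIM domain protein, had 1008, 1315, 1190 and 1164 in Hmga2 KO, against 1338, 1959 and 1572 in wild type, with separate groups (difference -0.46, adjusted p = 0.294, limma), and Pdlim1 differed by -0.36 (adjusted p = 0.439). The highest Nebl value belonged to Hmga2 KO replicate 1, the sample with the lowest scaffold values. Whether paralogs and sarcomere forms differ in their response was not tested.

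**Figure D5:**
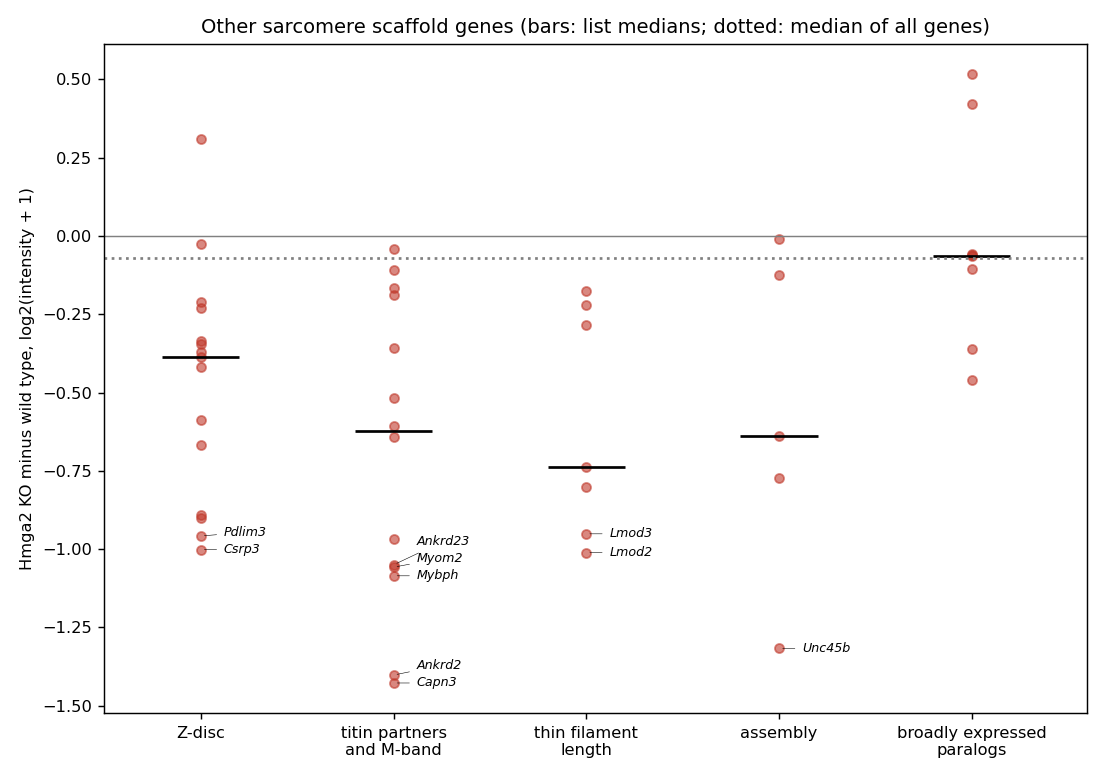
Hmga2 KO minus wild type in log2(intensity + 1) for 49 other scaffold genes, 1 point a gene, in 5 lists with bars at the list medians and a dotted line at the median of all genes (-0.07). The medians run from -0.74 (thin filament length) to -0.06 (broadly expressed paralogs), and the 10 genes with the largest differences outside the dimmest 40% of all genes are named.

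A list of 16 genes of differentiated muscle, such as Acta1, Myh3 and Tnnt3, showed how close the scaffold genes lay to the rest of the muscle programme. All 16 had a lower mean in Hmga2 KO, with a median of -0.62 over all samples and -0.27 in females alone, and by limma 6 reached an unadjusted p under 0.05 and 0 passed after adjustment. Of all genes, 67.6% had a lower mean and 10.3% were lower at that unadjusted threshold. Their mean level relative to all samples was -0.98, 0.31, -0.34 and -0.14 in Hmga2 KO replicates 1 to 4, against 0.03, 0.78 and 0.33 in wild type replicates 1 to 3. The 10 scaffold genes, by the same measure, stood at -1.08, 0.22, -0.35 and -0.18 in Hmga2 KO and at 0.09, 0.80 and 0.51 in wild type. The 7 samples stood in the same order in both sets, though Hmga2 KO replicate 2 and wild type replicate 3 were closer together in the muscle list. Whether the 2 sets differ was not tested.

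Genes most like the mean profile of the 10, among 10905 others outside the dimmest 40%, were found by Pearson correlation over the 7 samples. The 8 closest were Tnfrsf19 (0.999), Mybph (0.996), Calml4 (0.995), Unc45b (0.994), Sln (0.994), Nol3 (0.994), Ankrd61 (0.993) and Rtn2 (0.992). Tnfrsf19, a receptor of the TNF family, had 247, 636, 429 and 485 in Hmga2 KO, against 622, 1080 and 846 in wild type. Its difference was -0.96 on this probe set and -0.34 on the mean of its probe sets. Sln encodes sarcolipin, a regulator of the calcium pump, and had 129, 419, 257 and 274 in Hmga2 KO, against 427, 905 and 577 in wild type. In each of the 8, Hmga2 KO replicate 1 was lowest and wild type replicate 2 highest. A correlation above 0.9 was reached by 732 genes and one below -0.9 by 88, so high values were common over these 7 samples.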

How the data were processed

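Linear intensities of 45101 probe sets were deposited by the authors for each of 7 samples. Every array has a median of 150 and a lowest value of 33.2 to 36.7, so the arrays had been scaled to a common median. Biotin-labelled cRNA was used, per the labels' protocols; the sources used here do not give the summarization, background correction or software. Intensities were transformed to log2(intensity + 1). Gene names came from GEO's platform table (34945 with 1 gene, 932 with several, 9160 with none, 64 controls), and 34741 of those with 1 gene matched RefSeq genes of GRCm38.p6 by gene identifier. Each of 18193 genes was represented by its brightest probe set. Groups come from the titles. limma 3.58.1 in R 4.3.3 compared the groups with no covariate, and male with female Hmga2 KO samples in a fit of 3 groups, and p-values were adjusted by Benjamini-Hochberg over 18193 genes (threshold 0.05). The scripts were tested on simulated data.

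The 10 genes, all lists and tests were chosen with earlier results of these data known. Named are the 10 genes, Hmga2, of the other scaffold genes the 10 with the largest difference outside the dimmest 40%, and the 8 genes most like the mean profile. The alternatives tried were females alone, a sex covariate, a block for the replicate number, each sample left out, 2 samples left out together (chosen after the data were seen), quantile normalization, subtraction of the lowest intensity, no dim genes, other choices of probe set, a pseudocount of 16, a trended and robust prior, array weights, and probe sets in place of genes.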

Additional observations from a re-analysis of the deposited data

Results flagged for a closer look

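Of 35 probe sets examined among the 4 Hmga2 KO samples, 2 had a sample far from the other 3 by Dixon's criterion, which chance meets in about 1 of 20 groups. The brightest Ttn probe set read 1168 in replicate 1, against 1820 to 1901 in the other 3. On the brighter Myoz1 probe set, which is dim, replicate 2 had 95, against 82.1 to 83.6 in the other 3.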

How the results depend on the processing

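The median difference of the 10 scaffold genes kept its sign under all 15 alternatives in which it was computed, from -1.17 (without Hmga2 KO replicate 2) to -0.63 (without Hmga2 KO replicate 1) with 1 sample left out, and was -0.48 with sex as a covariate or in females alone and -0.45 without Hmga2 KO replicate 1 and wild type replicate 2. Of 405 differences of 27 named genes under 15 alternatives, 399 kept their sign, and the exceptions were all of Neb. The 10 genes were chosen with their lower level in this contrast known, so a kept sign supports nothing. The alternatives also repeat each other in part. Males occur in Hmga2 KO alone, so a sex covariate gives the same differences as females alone. For genes with 1 probe set, the choice of probe set changes nothing. Between Hmga2 KO and wild type 5 genes passed over all genes, 2 to 17 with 1 sample left out (2 without wild type replicate 3, 17 without Hmga2 KO replicate 2), 16 without both samples named above and 8 when probe sets were tested. With the replicate number as a block, which leaves Hmga2 KO replicate 4 without weight, 99 genes passed and, of the other scaffold genes, 8, all lower in Hmga2 KO, in place of 0. Whether the numbers pair the samples was not tested. Deviations from the group means correlated at 0.36, 0.43 and -0.16 for replicates 1, 2 and 3. By these deviations, wild type replicates 1, 2 and 3 were most like Hmga2 KO replicates 1, 2 and 1, with Hmga2 KO replicate 4 not compared. In the other alternatives tested on genes 0 of the other scaffold genes passed, and 0 of their 106 probe sets passed when probe sets were tested. Between male and female Hmga2 KO samples 7 genes passed, 5 to 8 with 1 sample left out, 3 without the dimmest 40% and 23 when probe sets were tested, and in each of these 0 of the 10 scaffold genes, or of their 18 probe sets, passed. Leaving out 1 male or female there leaves a lone sample that is assumed to vary like the others. The causes of these moves were not tested. Values near background, as for Myoz1, limit what can be said of its fold.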
